A study of Mus musculus with 9 samples.

Results

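Naip2, Naip5, Trim30d, Trim12a, Trim34a, Gbp8, Ifi204 and Ifi214 are 8 innate immune genes that stood far apart between regulatory T (Treg) cells lacking the Hippo kinases Mst1 and Mst2 and wild-type Treg cells. They were taken as every probe set whose only gene symbol is 1 of these names, which gave 9 of the 41345 probe sets on the array (Trim34a has 2). The 8 genes were chosen because of their difference in this comparison, so their differences are described here and not tested. The Mst1/Mst2-KO group (n = 4) is labelled Foxp3YFP-CreStk4f/fStk3f/f and null for both kinases: Stk4 encodes Mst1, Stk3 encodes Mst2, f marks the alleles that Cre removes, and Cre is made with YFP from the Foxp3 locus and so acts in Foxp3-expressing cells. The wild-type (WT) group (n = 5) carried Foxp3YFP-Cre alone. All 9 samples are labelled C57BL/6, and nothing used here states the age or the backcross generations. The cells were CD4+YFP+ and CD45.2+ and were sorted from chimeras 2 months after marrow of either donor line, mixed with CD45.1 WT marrow, had been given to RAG1-/- mice, which make no mature T or B cells of their own. Each sample was read on 1 whole-transcript Affymetrix array as log2 RMA values.

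These genes belong to 4 families of pathogen sensors and restriction factors that lie in tandem gene clusters. Naip proteins bind bacterial ligands in the cytosol (Naip5 flagellin, Naip2 a rod protein of type III secretion systems) and assemble with Nlrc4 to activate caspase-1. The Trim genes belong to a cluster of ubiquitin ligase genes related to human TRIM5, a restriction factor of retroviruses. Guanylate-binding proteins (Gbp) are interferon-induced GTPases that act on vacuoles holding microbes, and the Ifi200 (PYHIN) genes encode interferon-induced proteins, several of which bind DNA. Such clusters are known to differ in gene number and sequence between mouse strains, and their members are so alike that a probe made for 1 copy can bind another, or can fail to bind an altered copy. Which copy of a cluster a probe set read was not tested, so each value below is the signal of the named probe set.

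The stretch around the transcription start is shown for 6 of the genes, with 3 relatives that are set beside them below, because Trim12a, Trim30d and Ifi214 each resemble a relative here (Trim12c, Trim30a and Ifi209) whose signal did not move with theirs. The sequences are those of RefSeq on GRCm38.p6 (a C57BL/6J genome), from 150 bases before the start to 20 after it, and capitals mark a pair of GAAA runs that are 2 bases apart, on either strand, the core of the element that interferon-activated factors bind. Gbp8, Ifi204 and the window of a second Trim30a start, less like that of Trim30d, are not shown. The stretches lie at chr13:100202103-100202272 (minus strand) for Naip2, chr13:100247317-100247486 (minus strand) for Naip5, chr7:104244307-104244476 (plus strand) for Trim34a, chr7:104315476-104315645 (minus strand) for Trim12a and chr7:104353330-104353499 (minus strand) for Trim12c. Those of Trim30d, Trim30a, Ifi214 and Ifi209 lie at chr7:104507830-104507999 (minus strand), chr7:104465174-104465343 (minus strand), chr1:173535938-173536107 (minus strand) and chr1:173630709-173630878 (plus strand), in that order.
Naip2: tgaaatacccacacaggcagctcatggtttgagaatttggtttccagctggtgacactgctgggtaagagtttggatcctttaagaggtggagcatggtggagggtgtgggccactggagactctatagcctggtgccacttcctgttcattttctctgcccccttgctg
Naip5: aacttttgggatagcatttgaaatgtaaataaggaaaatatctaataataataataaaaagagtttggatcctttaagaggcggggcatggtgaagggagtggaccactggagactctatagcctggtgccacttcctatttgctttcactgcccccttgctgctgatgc
Trim34a: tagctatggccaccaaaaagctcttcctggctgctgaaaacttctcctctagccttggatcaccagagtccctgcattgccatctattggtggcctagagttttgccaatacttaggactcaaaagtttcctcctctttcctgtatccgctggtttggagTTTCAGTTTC
Trim12a: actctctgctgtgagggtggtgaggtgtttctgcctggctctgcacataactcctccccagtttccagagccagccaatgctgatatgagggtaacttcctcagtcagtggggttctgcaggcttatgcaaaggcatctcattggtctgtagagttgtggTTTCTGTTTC
Trim12c: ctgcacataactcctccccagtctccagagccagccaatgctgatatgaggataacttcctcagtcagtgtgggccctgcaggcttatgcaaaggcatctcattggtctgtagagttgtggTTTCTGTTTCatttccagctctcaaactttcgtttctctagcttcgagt
Trim30d: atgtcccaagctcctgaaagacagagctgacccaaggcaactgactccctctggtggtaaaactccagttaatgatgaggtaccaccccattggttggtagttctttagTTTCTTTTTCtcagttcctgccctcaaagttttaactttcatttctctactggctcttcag
Trim30a: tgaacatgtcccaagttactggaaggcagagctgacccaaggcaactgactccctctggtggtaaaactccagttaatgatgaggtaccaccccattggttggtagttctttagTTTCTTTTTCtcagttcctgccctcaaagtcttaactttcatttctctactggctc
Ifi214: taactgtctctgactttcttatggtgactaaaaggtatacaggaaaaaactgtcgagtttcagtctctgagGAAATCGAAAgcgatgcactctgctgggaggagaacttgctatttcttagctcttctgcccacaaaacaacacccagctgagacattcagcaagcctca
Ifi209: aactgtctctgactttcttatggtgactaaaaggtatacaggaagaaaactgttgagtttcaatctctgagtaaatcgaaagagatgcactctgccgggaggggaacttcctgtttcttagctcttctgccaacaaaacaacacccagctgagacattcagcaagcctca
The core was found in 4 of the 6 member windows of 300 bases (Trim34a, Trim12a, Trim30d and Ifi214), and in 3.44% of the 32851 windows of that length in the table. It was not particular to the members. Of the relatives scanned, Trim12c, Trim30a, Gbp7 and Ifi213 held the core, and Naip6, Ifi209 and Aim2 did not. TTCNNNGAA, the site of factors activated by interferon gamma, was found in 0 of the 6 member windows and in 8.3% of all windows. Its GAA can lie within the first motif. Of the relatives scanned, Gbp7 held TTCNNNGAA. A match is a run of letters and not a measured site. Members with the core include 3 genes with lower signal in KO cells and 1 with higher signal.

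The Naip genes were lower in KO cells. Naip5 was 5.07, 4.77, 5.26 and 5.39 in the KO arrays, against 7.15, 7.24, 7.03, 7.15 and 7.09 in the WT arrays. The WT values lay within 0.21 log2 units of each other and every KO value was at least 1.64 below them. The difference was -2.01 ± 0.12 (SE), a 4.04-fold lower signal. Naip2 was 3.81, 3.71, 3.40 and 4.66 in the KO arrays, against 6.60, 6.82, 6.59, 5.78 and 5.65 in the WT arrays. Here KO array 4 stood above the other KO arrays, and WT arrays 4 and 5 below the other WT arrays, yet the groups stayed 0.99 apart. The KO mean of 3.89 ± 0.54 (SD, n = 4) lay below 4.04, the median of all values on the arrays, a level that may be background. With the 3 KO values below that median set to it, Naip2 was at least 4.27-fold lower; the deposited values differed by -2.39 ± 0.32 (SE), a size that is not measured where signal nears background. As these are bulk samples, fewer cells with a transcript and less of it per cell cannot be told apart here or below.

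The 3 Trim genes were lower as well. Trim30d was 3.97, 4.87, 3.65 and 3.01 in the KO arrays, against 6.55, 6.20, 6.58, 7.07 and 6.99 in the WT arrays. Trim12a was 3.73, 4.72, 3.17 and 3.15 in the KO arrays, against 6.37, 6.09, 6.45, 6.12 and 6.46 in the WT arrays. In both genes KO array 2 was the highest of its group by at least 0.90 units, and still lay at least 1.33 below every WT array. Their KO means, 3.87 ± 0.78 and 3.69 ± 0.73 (SD, n = 4 each), were below the median of all values. With KO values below that median set to it, Trim30d was at least 5.38-fold lower and Trim12a at least 4.26-fold lower. The deposited values differed by -2.80 ± 0.34 and -2.61 ± 0.30 (SE), with the same limit as for Naip2. Trim34a was read by 2 probe sets. The brighter was 5.55, 6.17, 5.45 and 5.85 in the KO arrays, against 7.55, 7.85, 7.74, 7.24 and 7.21 in the WT arrays, a 3.39-fold lower signal. The dimmer was 4.40, 4.30, 3.98 and 4.45 in the KO arrays, against 6.28, 6.07, 5.81, 6.21 and 6.31 in the WT arrays, 3.61-fold lower. Its KO mean of 4.28 lay close to the median of all values, so that fold has a similar limit. Both Trim34a probe sets separated the groups by more than 1 unit, with differences of -1.76 ± 0.19 and -1.85 ± 0.13 (SE).

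Gbp8 and the 2 Ifi200 genes were higher in KO cells. Gbp8 was 8.11, 7.20, 8.72 and 8.32 in the KO arrays, against 6.66, 6.69, 5.95, 5.99 and 6.50 in the WT arrays. KO array 2 was again the nearest to WT, 0.52 above the highest WT array, and the difference was 1.73 ± 0.30 (SE), a 3.32-fold higher signal. Ifi204 was 5.89, 5.87, 5.15 and 5.96 in the KO arrays, against 4.53, 3.91, 4.19, 4.14 and 4.77 in the WT arrays, with KO array 3 low in its group and 0.39 above the highest WT array. Ifi214 was 6.08, 6.51, 5.88 and 6.18 in the KO arrays, against 5.03, 5.64, 4.83, 4.87 and 4.72 in the WT arrays, where WT array 2 came within 0.25 of the lowest KO array. The differences were 1.41 ± 0.22 and 1.15 ± 0.20 (SE), or 2.66-fold and 2.21-fold higher signal. Unlike Naip2, Trim30d and Trim12a, these 3 genes had means above the median of all values in both groups. Ifi204 lay close to that median of 4.04 in WT cells (mean 4.31, with WT array 2 at 3.91), so the size of its rise has a similar limit.

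**Figure D1:**
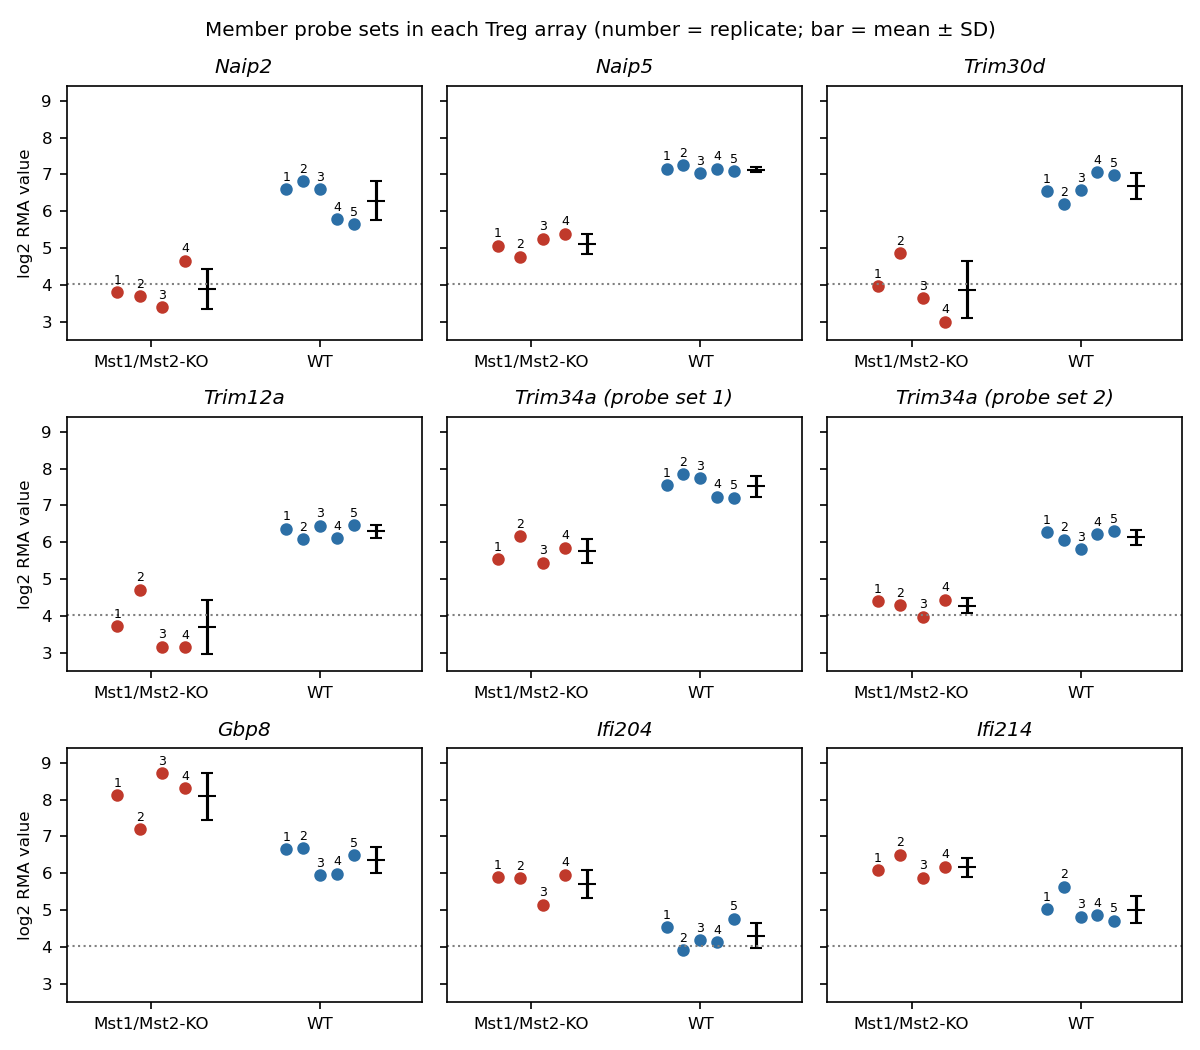
Log2 RMA value (y axis) of the 9 member probe sets in each Treg array, 4 Mst1/Mst2-KO arrays in red and 5 WT arrays in blue, numbered by replicate, with mean ± SD as black bars and the median of all values (4.04) as a dotted line. The groups do not overlap in any panel, the widest gap being 1.64 for Naip5 and the narrowest 0.25 for Ifi214.

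In each of the 9 probe sets the groups did not overlap, which held for 5.39% of all probe sets. The gap between the nearest arrays of the 2 groups was over 1 log2 unit in 5 of the 9, against 0.198% of all probe sets, and over 0.5 in 7 of the 9, against 0.433%. Nothing is read from these counts, as the members were chosen on this contrast. The size of the gap and the scatter varied within the set. The SD of the KO arrays was 4.01 times that of the WT arrays for Trim12a and 3.41 times for Naip5, but 1.02 times for Naip2 and 0.713 times for Ifi214.

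The KO arrays did not keep 1 order over the members. KO array 2 was the nearest to the WT mean for Trim30d, Trim12a, the brighter Trim34a probe set and Gbp8, which are 4 of the 9. KO array 4 was the nearest for both Naip genes and the dimmer Trim34a probe set, KO array 3 for both Ifi200 genes, and KO array 1 for 0. Among the 515 genes that changed over the whole array, KO arrays 2 and 4 were the nearest to WT for 31.8% and 36.9%. The array nearest to WT was thus shared within the Naip and Ifi200 pairs, but the Trim34a probe sets differed in it, and Gbp8 on another chromosome shared it with Trim30d and Trim12a. Trim12a and Trim30d were also the most alike pair of members, their profiles over the 9 arrays (each centred on its own mean) differing by 0.30 log2 units as a root mean square.

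**Figure D2:**
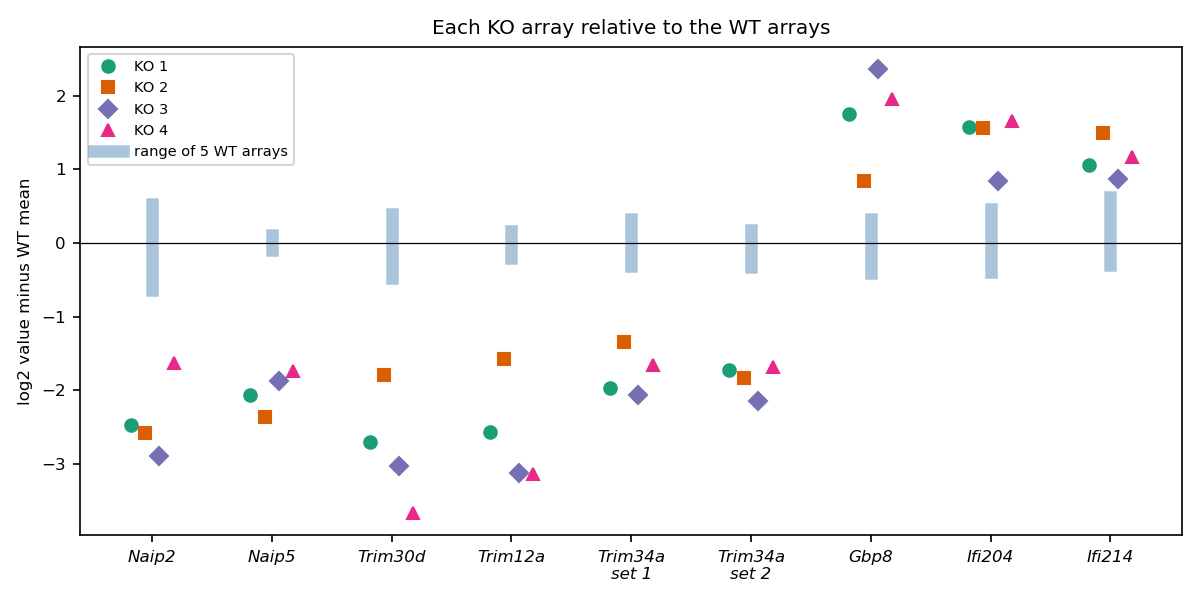
Log2 value of each KO array minus the WT mean (y axis) for the 9 member probe sets (x axis), with the range of the 5 WT arrays as a blue bar. KO array 2 (orange squares) lies nearest to WT for Trim30d, Trim12a, the brighter Trim34a probe set and Gbp8, and KO array 4 (pink triangles) for Naip2 and Naip5.

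The other genes of the 4 families, named from the families and not from the rule for members, were compared between the groups in a fit over all 22180 genes. Of 28 measured relatives, 2 passed the threshold (limma adjusted p under 0.05), 1 higher and 1 lower, or 7.14%, against 2.32% of all genes (1.89% lower and 0.428% higher in KO). In 24 of the 28 the difference was smaller than 0.5 log2 units, and the median difference was 0.020, against 0.0023 over all genes. Of the 28, 10 had a mean below the median of all values, where a small difference says little. Both called relatives were among the 18 above it, a level at which 4.3% of all genes passed. The groups did not overlap in 4 of the 28 (Trim12c, Gbp7, Gbp3 and Ifi213), against 6.16% of all genes. Of all genes called, 95 of 515 were higher in KO, and 170 of 476 after quantile normalisation.

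The relative that rose was Trim12c, which like Trim12a is a mouse homologue of TRIM5. It was 8.25, 7.84, 7.85 and 7.68 in the KO arrays, against 7.36, 7.26, 7.14, 7.13 and 7.16 in the WT arrays, with no overlap. The difference was 0.69 ± 0.11 (SE, limma adjusted p = 0.0103), opposite in direction to Trim12a, and Trim12c stayed past the threshold under each alternative that was run. The windows of Trim12a and Trim12c, aligned end to end, had 72.6% identical columns. Scanned windows of genes from different families had 38.5% to 49.6%. Probe sets annotated to Trim12c together with Trim5 did not pass in the fit over all probe sets, of which 1.28% passed. The brighter had 8.83 to 9.03 in the KO arrays, against 8.79 to 9.17 in the WT arrays (limma adjusted p = 0.655). The dimmer had 6.65 to 6.91 in the KO arrays, against 6.91 to 7.06 in the WT arrays (limma adjusted p = 0.208).

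Trim30a, the best studied Trim30 gene, had 6.98, 6.31, 7.12 and 6.49 in the KO arrays, against 6.38, 6.68, 6.73, 6.69 and 6.67 in the WT arrays. Its groups overlapped, with a difference of 0.095 (95% interval from -0.26 to 0.45, limma adjusted p = 0.846). The Trim30a window shown above shared 90.8% of aligned columns with that of Trim30d. The window of a second Trim30a start shared 65.5% with that of Trim30d. Trim30b, Trim30c, Trim30e-ps1 and Trim6 had means below the median of all values and did not pass. Nor did Trim21, an antibody receptor in the cytosol (difference -0.34, limma adjusted p = 0.17), Trim68 or Trim3. A probe set annotated to Trim34b and Trim34a together, which names no single gene, had 8.92, 8.15, 8.11 and 8.52 in the KO arrays, against 7.75, 8.14, 8.02, 8.26 and 7.86 in the WT arrays. It was the brightest of the probe sets that name Trim34a, and its difference of 0.42 ± 0.18 (SE) ran opposite to those of the Trim34a probe sets, with overlapping groups.

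Of the Naip relatives, Naip6, which also binds flagellin, had 3.57 to 4.34 in the KO arrays, against 3.75 to 5.03 in the WT arrays (difference -0.48, 95% interval from -1.04 to 0.077, limma adjusted p = 0.42). Naip3 lay below the median of all values in both groups. Naip1, Naip4 and Naip7 had no probe set of their own among the named ones. The windows of Naip2 and Naip5 had 61.8% identical columns, against at most 49.6% between windows of different families.

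The Gbp family did not move as a group. Gbp7 fell (7.60 to 7.95 in the KO arrays, against 8.08 to 8.36 in the WT arrays, difference -0.44 ± 0.089, SE, limma adjusted p = 0.0316). Its call was lost with the replicate block, after quantile normalisation, and without KO array 1, KO array 2, KO array 4, WT array 3, WT array 4 or WT array 5, or KO arrays 2 and 4 together. Gbp9, Gbp4, Gbp10, Gbp6 and Gbp11, which follow Gbp8 in gene order, did not pass, and their differences lay between -0.13 and 0.32. Gbp6 and Gbp11 had means below the median of all values. The others leaned in the direction of Gbp8, with differences of 0.11 for Gbp9, 0.32 for Gbp4 and 0.23 for Gbp10. Gbp4 was the nearest to Gbp8 in size and direction (7.70 to 8.05 in the KO arrays, against 7.42 to 7.79 in the WT arrays, limma adjusted p = 0.133). Gbp3, with a difference of -0.60, did not pass (limma adjusted p = 0.131). Gbp2b had 5.56, 4.91, 5.20 and 7.05 in the KO arrays, against 6.54, 6.09, 6.19, 6.29 and 6.27 in the WT arrays. Its KO array 4 lay above all WT arrays and the other KO arrays below them, and it did not pass (limma adjusted p = 0.499), though it did without KO array 4.

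In the Ifi200 family 0 of 8 measured relatives passed with limma over all genes, and 1 had an unadjusted p under 0.05 (12.5%, against 14.9% of all genes). That gene, Ifi213, lies next to Ifi214 in gene order. It had 4.33, 4.20, 4.16 and 4.05 in the KO arrays, against 5.20, 4.78, 5.06, 4.48 and 4.52 in the WT arrays, lower in KO and without overlap (difference -0.62 ± 0.15, SE, limma adjusted p = 0.0614), and it passed when dim genes were left out. Ifi209, whose window shared 95.3% of aligned columns with that of Ifi214 but held no such core, had 7.98 to 8.47 in the KO arrays, against 8.14 to 8.96 in the WT arrays (difference -0.22, 95% interval from -0.60 to 0.16, limma adjusted p = 0.621). Aim2, the DNA sensor that activates caspase-1, had a difference of 0.11 (limma adjusted p = 0.612), Mndal 0.069 and Ifi208 0.12. Ifi202b, known for its loss of expression in C57BL/6 mice, was between 2.02 and 2.23 in the KO arrays and between 1.97 and 2.12 in the WT arrays, far below the median of all values.

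**Figure D3:**
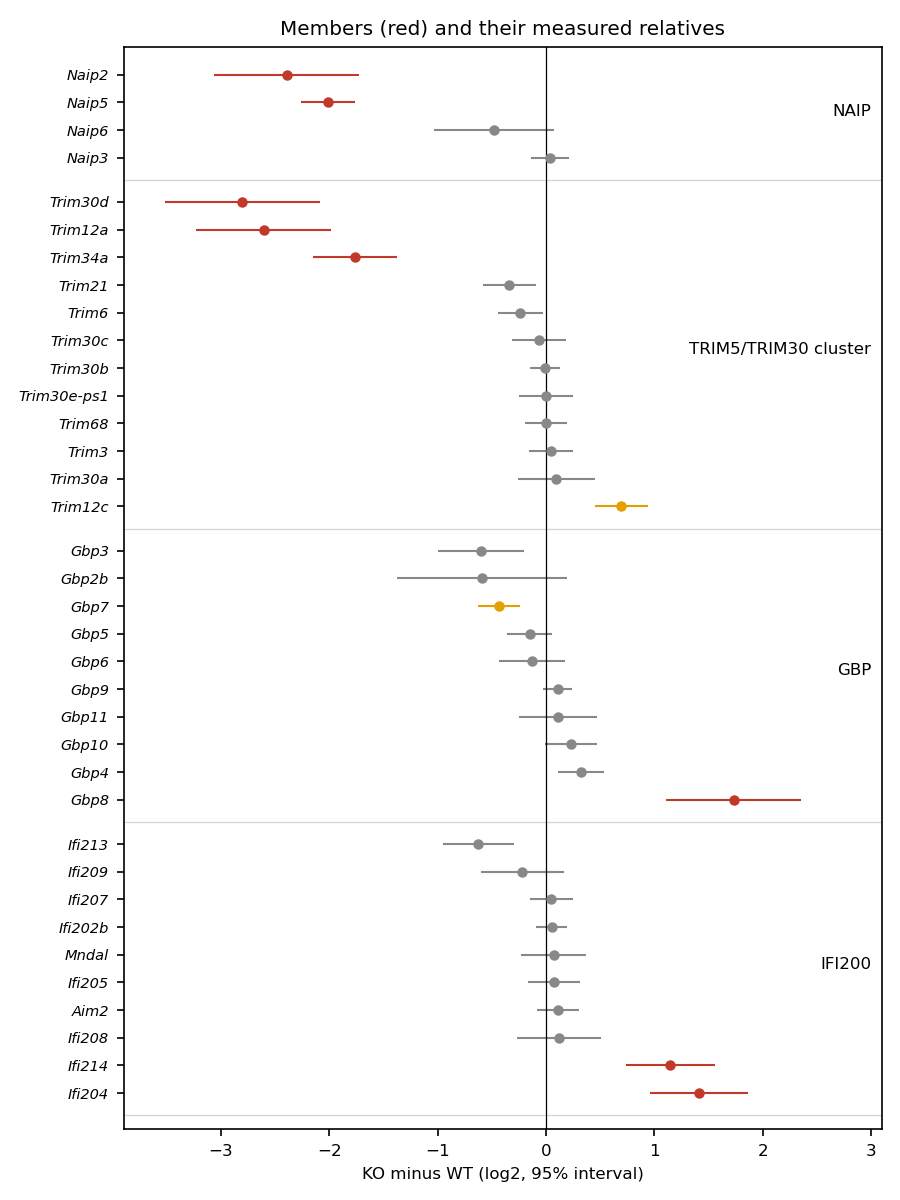
Difference between KO and WT means (x axis, log2 units, with 95% intervals from limma) for the 8 members in red and 28 measured relatives, ordered within each of 4 families; orange marks relatives past the threshold and grey the others. Trim12c (0.69) and Gbp7 (-0.44) are the orange points, and most grey points lie within 0.5 of 0.

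Genes that lie next to the members were then compared, as the families are known to differ between mouse lines. The 10 measured genes on each side of a member in the order of GRCm38.p6 were taken, 89 genes in all without the members. They include relatives counted above, so the sets overlap, and Trim12c is called in both. Of the 89 neighbours, 4 passed with limma (4.49%, against 2.32% of all genes). All 4 were among the 33 neighbours with a mean above the median of all values, which is 12.1% of those 33, against 4.3% of all genes with such a mean.

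Beside Naip2 and Naip5 on chromosome 13, 2 of 20 neighbours fell. Marveld2, a tight junction gene, had 4.14, 4.20, 3.85 and 4.10 in the KO arrays, against 4.83, 4.93, 4.50, 5.36 and 4.87 in the WT arrays (difference -0.82 ± 0.15, SE, limma adjusted p = 0.019). Ccdc125 had 6.49, 6.71, 6.67 and 6.44 in the KO arrays, against 7.20, 7.17, 6.99, 7.08 and 7.08 in the WT arrays (difference -0.53 ± 0.077, SE, limma adjusted p = 0.00759). The Marveld2 call was lost without KO array 1, KO array 3 or WT array 2, or KO arrays 2 and 4 together, and the Ccdc125 call with the replicate block. Genes around these, among them Rad17, Taf9 and Cdk7, did not pass. On chromosome 5, 1 of 20 neighbours of Gbp8 fell, Lrrc8b, which encodes a subunit of volume-regulated anion channels (4.13 to 4.84 in the KO arrays, against 5.05 to 5.61 in the WT arrays, difference -0.92 ± 0.15, SE, limma adjusted p = 0.0114). Its call was lost without KO arrays 2 and 4 together. Around the Trim genes on chromosome 7, Trim12c was the 1 of 25 that passed, and 3 of the 25 had a mean above the median of all values, most of the others being olfactory receptor genes. Around the Ifi200 genes on chromosome 1, 0 of 24 passed with limma, and 5 of the 24 had a mean above the median of all values.

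The members lie on chromosomes 1, 5, 7 and 13, whereas the modified genes Stk4, Stk3 and Foxp3 lie on chromosomes 2, 15 and X. The same count around those loci gave 1 of 20 genes for Stk4 and 0 of 20 for Stk3 and for Foxp3. The gene called near Stk4 was Serinc3, related to a restriction factor of retroviruses in humans, and it lay outside the 5 nearest on either side. Serinc3 had 8.89, 9.27, 8.95 and 8.97 in the KO arrays, against 9.83, 9.93, 9.91, 9.55 and 9.73 in the WT arrays (difference -0.77 ± 0.10, SE, limma adjusted p = 0.00475). Windows of 20 genes on either side gave 2 of 40 for Stk4, 1 of 40 for Stk3 and 0 of 40 for Foxp3, against 2.32% of all genes. Whether linked DNA differs between the donor lines was not tested.

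**Figure D4:**
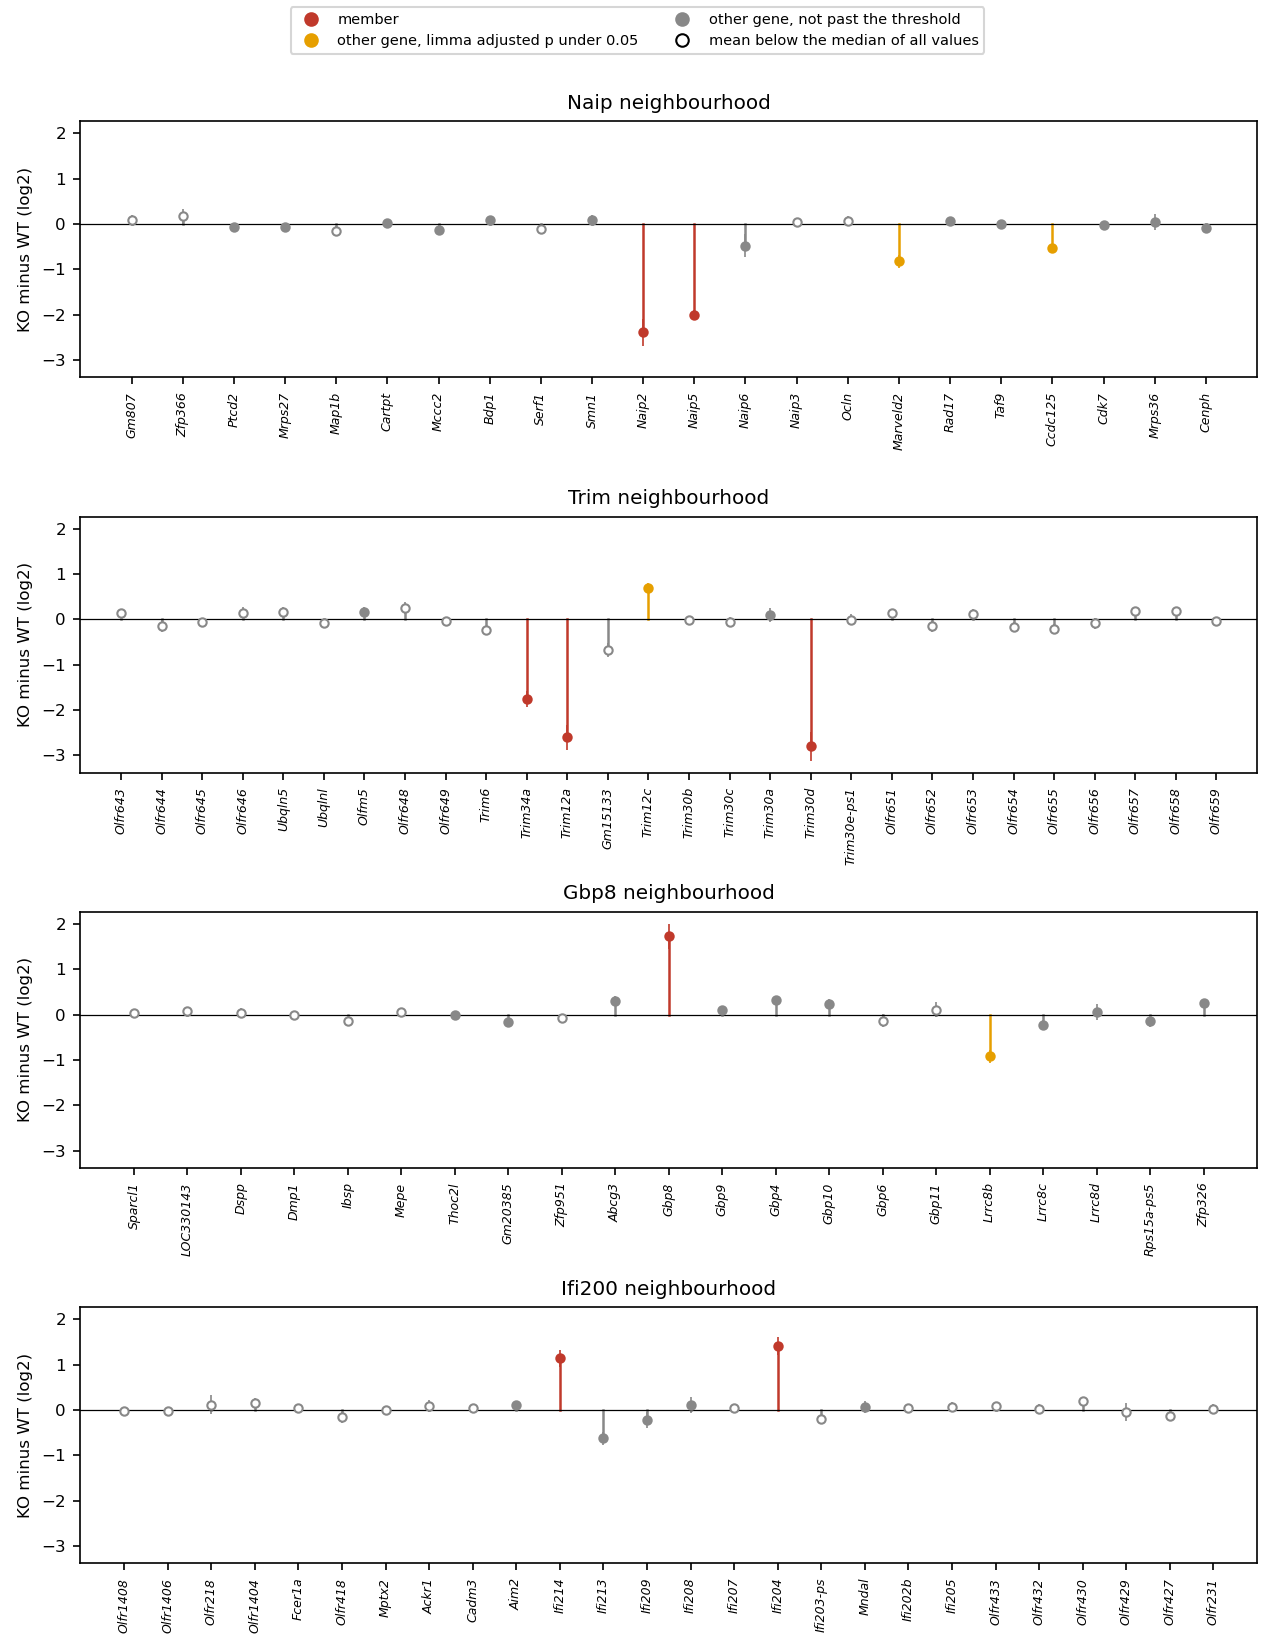
Difference between KO and WT means (y axis, log2 units, bars are SE) for measured genes in chromosome order (x axis, order and not distance) around the members, in 4 panels. Members are red, other genes past the threshold orange and the rest grey, and open symbols have a mean below the median of all values: Trim30d (-2.80) stands beside Trim30a (0.095), and Gbp8 (1.73) beside Gbp9 (0.11).

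Genes of the pathways that these members serve were counted from lists. Of 12 measured inflammasome genes, among them Nlrc4, Casp1 and Pycard, 0 passed with limma and 2 had an unadjusted p under 0.05, or 16.7%, against 14.9% of all genes (median difference -0.085). These were the sensor gene Nlrp1b and the cytokine gene Il1b (differences 0.39 and 0.34, limma adjusted p = 0.131 and 0.26). Nlrc4, the partner of the Naip proteins, had 2.69 to 2.96 in the KO arrays, against 2.91 to 3.52 in the WT arrays, below the median of all values. Casp1, the protease that Naip proteins activate, had 7.43 to 8.20 in the KO arrays, against 7.87 to 8.19 in the WT arrays. Of 29 type I interferon response genes, 0 passed and 8 (27.6%) had an unadjusted p under 0.05, 4 in each direction (median 0.025). The smallest p was that of Usp18, an inhibitor of interferon signalling (7.76 to 8.05 in the KO arrays, against 7.35 to 7.66 in the WT arrays, limma adjusted p = 0.0704). Ifih1, a sensor of viral RNA, came next, in the other direction (difference -0.40, limma adjusted p = 0.0974). Of 15 interferon gamma response genes, 0 passed and 6 (40%) had an unadjusted p under 0.05, 3 in each direction (median 0.052), with Cd274 (the PD-L1 gene) and Iigp1 first (differences -0.47 and 0.30). Of 7 DNA sensing genes 0 passed and 3 (42.9%) had an unadjusted p under 0.05, with Irf3 and Sting1 first (0.26 and -0.28). Of 7 interferon receptor and kinase genes 0 passed and 4 (57.1%) had an unadjusted p under 0.05, with Jak2 and Ifngr1 first (-0.32 and -0.42). These shares were not tested against that of all genes.

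A list of 19 measured genes known to vary in presence or level between mouse strains held 1 call (5.26%, against 2.32% of all genes). By limma, 6 of the 19 had an unadjusted p under 0.05 (31.6%, against 14.9% of all genes), 3 in each direction. That share was not tested against that of all genes. Apobec3, a restriction factor of retroviruses, had 8.19 to 8.40 in the KO arrays, against 8.57 to 8.89 in the WT arrays (difference -0.45, limma adjusted p = 0.0162). Nnt, which is deleted in part in C57BL/6J mice, had 5.47 to 5.80 in the KO arrays, against 5.77 to 5.92 in the WT arrays (limma adjusted p = 0.18). Casp4, which is lost in 129 mice, was 8.08 to 8.40 in the KO arrays, against 8.21 to 8.58 in the WT arrays (limma adjusted p = 0.588).

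Genes whose profiles over the 9 arrays were most like those of a member were found by the root mean square difference of centred log2 values. For Naip2 these were Itgae (0.42) and Gprasp2 (0.46), and for Naip5 Cst7 (0.22) and Nrp1 (0.28). Rps13 (0.59 and 0.52) and then Nrp1 (0.63 and 0.53) were the nearest to both Trim30d and Trim12a. Mtmr9 (0.22) and Atp2b4 (0.30) were the nearest to Trim34a. For the higher genes, Kcnmb4 (0.44) and Pde3b (0.48) were the nearest to Gbp8, Pde3b (0.37) and Dapl1 (0.37) to Ifi204, and Kcnmb4 (0.32) and Pttg1 (0.32) to Ifi214. Since the measure follows the group difference, it mostly finds genes that differ between the groups by about as much.

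Marker genes set the frame for these values. Of the targeted genes, Stk4 was 7.50 to 7.83 in the KO arrays, against 7.84 to 8.09 in the WT arrays, which did not pass (limma adjusted p = 0.146), and a probe set along the whole transcript does not check the removal of exons; Stk3 had no named probe set. Foxp3 was 10.59 to 10.79 in the KO arrays, against 10.66 to 10.77 in the WT arrays. All 8 measured Treg and T cell markers lay above the median of all values, and of these Ikzf2 fell (difference -0.72, limma adjusted p = 0.033). At an unadjusted p under 0.05 by limma, 4 of the 8 were lower (50%, against 14.9% of all genes), namely Ikzf2, Cd3e, Cd3g and Cd4. Mean levels of the 8 were 9.82 to 9.99 in the KO arrays, against 10.09 to 10.15 in the WT arrays. Naip, Gbp and Ifi200 genes are known from macrophages, and 16 myeloid markers had mean levels of 4.83 to 5.72 in the KO arrays, against 4.82 to 5.26 in the WT arrays. Of these, Ctss and Cybb fell (Cybb 5.98 ± 0.31 in KO cells, against 6.98 ± 0.19 in WT cells, SD, and Ctss by -0.42) and 0 rose by limma. Of the 16, 6 lay below the median of all values, Itgam, Adgre1 and Cd14 among them. At an unadjusted p under 0.05 by limma, 5 of the 16 differed (31.2%, against 14.9% of all genes), 2 lower and 3 higher. The 3 higher were Cd68, Tyrobp and Fcer1g (differences 0.59, 0.74 and 0.41, limma adjusted p = 0.16, 0.184 and 0.202). KO array 4 stood apart in the neutrophil genes S100a8 and S100a9, with 8.90 and 8.41, against at most 5.84 and 5.63 in the other KO arrays and at most 6.89 and 6.94 in the WT arrays. Without KO array 4, which was also the highest KO array for Naip2, Naip5 and Gbp2b, the differences were -2.65 for Naip2 and -2.10 for Naip5. B cell, dendritic cell, and CD8 T and NK cell markers held 0 calls each by limma. At an unadjusted p under 0.05 by limma, 1 of 9 (11.1%), 2 of 6 (33.3%) and 2 of 9 (22.2%) were higher in KO. None was lower, and the share of all genes was 14.9%. Median differences were 0.25, 0.21 and 0.094, and every measured B cell marker leaned higher in KO (0.015 to 0.61). Mean levels were 4.46 to 5.20 in KO, against 4.24 to 4.97 in WT, for B cell markers. They were 4.27 to 4.63 in KO, against 4.13 to 4.40 in WT, for dendritic cell markers, and 3.87 to 4.19 in KO, against 3.79 to 4.04 in WT, for CD8 T and NK cell markers. The part of other cells in the members' values was not tested. The heat shock genes Hspa1a and Hspa1b were low in KO array 1 and in WT arrays 1 and 2, and with their level as a covariate the same 2 relatives passed.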

How the data were processed

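The authors deposited a log2 value for each probe set on each array, and the submitters' processing notes name RMA and Affymetrix Expression Console 1.1. RMA subtracts background, equalises arrays by quantiles and summarises probes, so weak signal is compressed and folds of dim genes are understated. No source used here gives the genome build behind the array. Array medians lay between 3.99 and 4.08. Precision is limited by the number of arrays.

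Probe sets were named from the platform annotation: 23521 had 1 symbol, 1814 several and 16010 none listed. The brightest probe set by mean stood for a gene, which gave 22180 genes, of which 21994 matched the reference gene table (GRCm38.p6, used for names and gene order). KO and WT were compared with limma 3.58.1 in R 4.3.3 (lmFit, eBayes, two-sided, Benjamini-Hochberg adjustment over all genes, threshold 0.05), and again over all 41345 probe sets for genes with several. The fit was tested on simulated data. Promoter windows were aligned globally with biopython 1.88.

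The members, lists and tests were chosen with earlier results of these data known. Named genes were the members, their measured relatives, called neighbours within 10 genes, called genes of each list (the first 2 by p where none was called) and the 2 nearest profiles per member, without predicted genes, antigen receptor segments, microRNA and olfactory receptor genes; others are illustrations. Older symbols were updated through the gene table. Separate chimeras are not stated for the samples, so the spread behind the p-values may be technical. The serial numbers in the titles place WT before KO, so that order and genotype cannot be told apart. Alternatives were a replicate block, a dim gene filter, probe set averaging, median centring, quantile normalisation, other eBayes settings, array weights and leaving out arrays. Bounds for members with a KO mean below the median of all values used that median as a floor, chosen after seeing the data.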

Additional observations from a re-analysis of the deposited data

Results flagged for a closer look

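Among 84 groups of values tested for a sample far from the others, 11 had one, where chance gives about 1 in 20. Ifi204 was 5.15 in KO array 3 (5.87 to 5.96 in the other KO arrays). Gbp11 was 4.00 in KO array 3 (3.30 to 3.33 in the others) and Gbp6 2.84 in KO array 3 (2.62 to 2.66). Aim2 was 8.10 in KO array 1 (7.88 in the other KO arrays) and 7.56 in WT array 5 (7.88 to 7.90 in the other WT arrays). Trim30b was 3.07 in KO array 2 (3.18 to 3.20) and 3.03 in WT array 3 (3.19 to 3.23). Trim30a was 6.38 in WT array 1 (6.67 to 6.73), Gbp5 6.53 in WT array 1 (6.34 to 6.39), Gbp3 7.53 in WT array 5 (7.08 to 7.15) and Stk4 8.09 in WT array 3 (7.84 to 7.88).

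A probe set annotated to Ifi211 and Ifi204 together, which the rule for members leaves out, was 7.04, 6.59, 6.64 and 6.85 in the KO arrays, against 5.71, 6.03, 6.32, 5.98 and 5.99 in the WT arrays. All KO values lay above all WT values, a difference of 0.77, in the direction of the Ifi204 probe set.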

How the results depend on the processing

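The differences of the 9 member probe sets kept their sign in all 108 recomputed values (2 scalings, each array left out, and KO arrays 2 and 4 left out together, the last chosen after seeing the data). Leaving out 1 array moved them most for Trim30d (-3.14 to -2.51), Trim12a (-2.95 to -2.42) and Gbp8 (1.52 to 2.03). Genes called over the whole array numbered 515, between 271 and 594 with 1 array left out, and 178 with the replicate block. In the fit over all probe sets the 529 calls became 16 with the replicate block and 255 to 631 with 1 array left out. Relatives called numbered 2, and 1 with the replicate block and 1 after quantile normalisation (Trim12c each time), with 1 to 2 when an array was left out. Without KO arrays 2 and 4, 3 relatives passed (Trim12c, Trim21 and Gbp2b). Called neighbours numbered 4, 2 of 49 with windows of 5 genes on either side and 6 of 169 with windows of 20. Replicate numbers are shared by the groups, but the labels do not say what they mark. The correlation of same-numbered arrays was between -0.12 and 0.042, and 0 of 4 KO arrays matched its own number best. So few pairs cannot decide whether same-numbered arrays share a batch. Signal near background limits Naip2, Trim30d and Trim12a in KO cells, where the size of the fall is not measured. The dimmer Trim34a probe set in KO cells and Ifi204 in WT cells had means close above that level, so their folds are limited too.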

Other observations

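A run on chromosome 7 was singled out after its values were seen. Over all 22180 genes, 23 (0.104%) had a gap of more than 1 log2 unit between the groups, and 7 of these lay on chromosome 7, where they fell into 1 run of 200 measured genes (of 1948 on the chromosome) that reaches from Trim34a to Rps13. Besides Trim34a, Trim12a and Trim30d these were Gm4759, Gm1966, Pde3b and Rps13. Rps13, a ribosomal protein gene with many processed copies, had 6.23, 7.81, 5.78 and 6.94 in the KO arrays, against 9.65 to 10.25 in the WT arrays. Gm4759 had 5.22, 6.41, 5.28 and 5.85 in the KO arrays, against 8.35, 8.46, 8.14, 8.49 and 8.35 in the WT arrays. In both, KO array 2 was the highest of its group, as for Trim12a, Trim30d and the brighter Trim34a probe set.

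Gm1966 had 5.59, 4.86, 4.60 and 5.60 in the KO arrays, against 8.31, 8.49, 8.20, 8.51 and 8.64 in the WT arrays. Pde3b, a phosphodiesterase gene, went the other way, with 5.31, 4.81, 4.72 and 4.82 in the KO arrays, against 3.64, 3.16, 3.21, 3.13 and 2.97 in the WT arrays. The run's ends were set by such genes, so the share called over it is no result. Between Trim30d and Rps13, 6 of 191 genes (3.14%) passed with limma, against 2.32% of all genes, and 3 of the 6 are Gm4759, Gm1966 and Pde3b. The other 3 were Gm8995, Dennd5a and Swap70, with differences of 0.34 for Gm8995, -0.65 for Dennd5a and -0.51 for Swap70.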
